A study of Mus musculus with 12 samples.

Results

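In all, 8 genes that build, break down and control glycogen were followed in the liver of mice raised on 4 diets. They were 8 of the 20422 genes read by the arrays. They were chosen by name, as array rows annotated to exactly 1 of the symbols Gyg, Ugp2, Gys2, Gbe1, Pygl, Phka2, Ppp1r3b and Ppp1r3c, and 123 probe sets met that rule. A probe set is a few short probes that read one stretch of a transcript, and a gene value was the mean log2 intensity of its probe sets. No array row carried a member among several symbols. The members had 9, 15, 17, 16, 21, 38, 3 and 4 probe sets in that order of genes.

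The animals were 20-week-old male C57Bl/6J mice. Every group, the controls included, ate a chow with 20% partially hydrogenated shortening, with trans fatty acids (TFA) making up 8.68% of its weight. The TFA group drank plain water. The MSG + TFA group drank 0.75 g/L monosodium glutamate, the ASP + TFA group 0.25 g/L aspartame, and the ASP + MSG + TFA group both. The dams had eaten the same diet from 3 weeks before mating and the offspring stayed on it after weaning at 4 weeks, so the exposure began before birth and no group was exposed in adult life alone. A low-fat or standard chow group was not analysed here. Each diet had 3 arrays, and each array carried RNA pooled from 5 mice. The tissue was taken after a fast, a state in which liver glycogen is drawn down. The unit of replication was therefore the pool, and a p-value measured the spread between pools only.

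Glycogen is the branched glucose polymer in which the liver stores sugar after a meal and from which it feeds the blood between meals. Glycogenin, encoded by Gyg, primes a new particle. UDP-glucose pyrophosphorylase (Ugp2) makes the activated glucose, liver glycogen synthase (Gys2) adds it to the chains, and the branching enzyme (Gbe1) makes the branch points. Liver glycogen phosphorylase (Pygl) releases glucose units, and phosphorylase kinase, whose liver regulatory subunit is Phka2, switches phosphorylase on. Ppp1r3b and Ppp1r3c are targeting subunits that hold protein phosphatase 1 on the glycogen particle. There the phosphatase turns the synthase on and phosphorylase off. These enzymes are controlled largely by phosphorylation and by glucose 6-phosphate, which an array does not measure.

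The pools passed the check of tissue: 11 hepatocyte marker genes had a mean log2 intensity of 14.11 to 14.27 in every pool. Markers of other tissues differed between pools. For 14 skeletal muscle markers the mean ran from 6.65 to 7.19 with TFA alone, and from 5.84 to 6.53 over the 9 pools given an additive. For 13 pancreatic acinar markers it reached 8.71 in pool 3 of ASP + TFA and 7.89 and 8.18 in pools 1 and 2 of ASP + MSG + TFA, with the rest between 6.11 and 7.42. The means of endothelial (8.57 to 8.81) and of stellate and biliary markers (7.52 to 7.67) spanned less, and those of adipocyte (6.97 to 7.53) and of Kupffer and immune markers (8.44 to 8.81) are set beside the Ppp1r3c values. In such whole-tissue RNA, fewer cells of a type and less RNA per cell cannot be told apart.

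Ppp1r3c was the member that stood apart, and it did so in the mice given both additives. Its gene value was 8.92, 9.01 and 9.36 in the 3 TFA pools. It was 9.21, 8.97 and 9.45 with MSG and 9.24, 9.47 and 8.97 with ASP. With both additives it was 9.90, 10.00 and 9.70, so every ASP + MSG + TFA pool lay above each of the other 9 pools. The TFA, MSG and ASP pools overlapped one another throughout. The mean of 8 adipocyte markers separated the same pools, at 7.38 to 7.53 with both additives against 6.97 to 7.36 in the other 9. Of these 8 markers 6 were higher and 2 lower than with TFA, none at an adjusted p under 0.05 and 2, both higher, at an unadjusted p under 0.05. The mean of 8 Kupffer and immune markers was 8.47 to 8.63 with both additives, below the 8.66 to 8.81 with TFA, and 7 of those 8 markers were lower. This mean did not set those pools apart from the single additives, at 8.62 to 8.68 with MSG and 8.44 to 8.68 with ASP. In each of these 2 diets 6 of the 8 markers were lower than with TFA. The part of these cell types in the Ppp1r3c values was not tested.

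**Figure D1:**
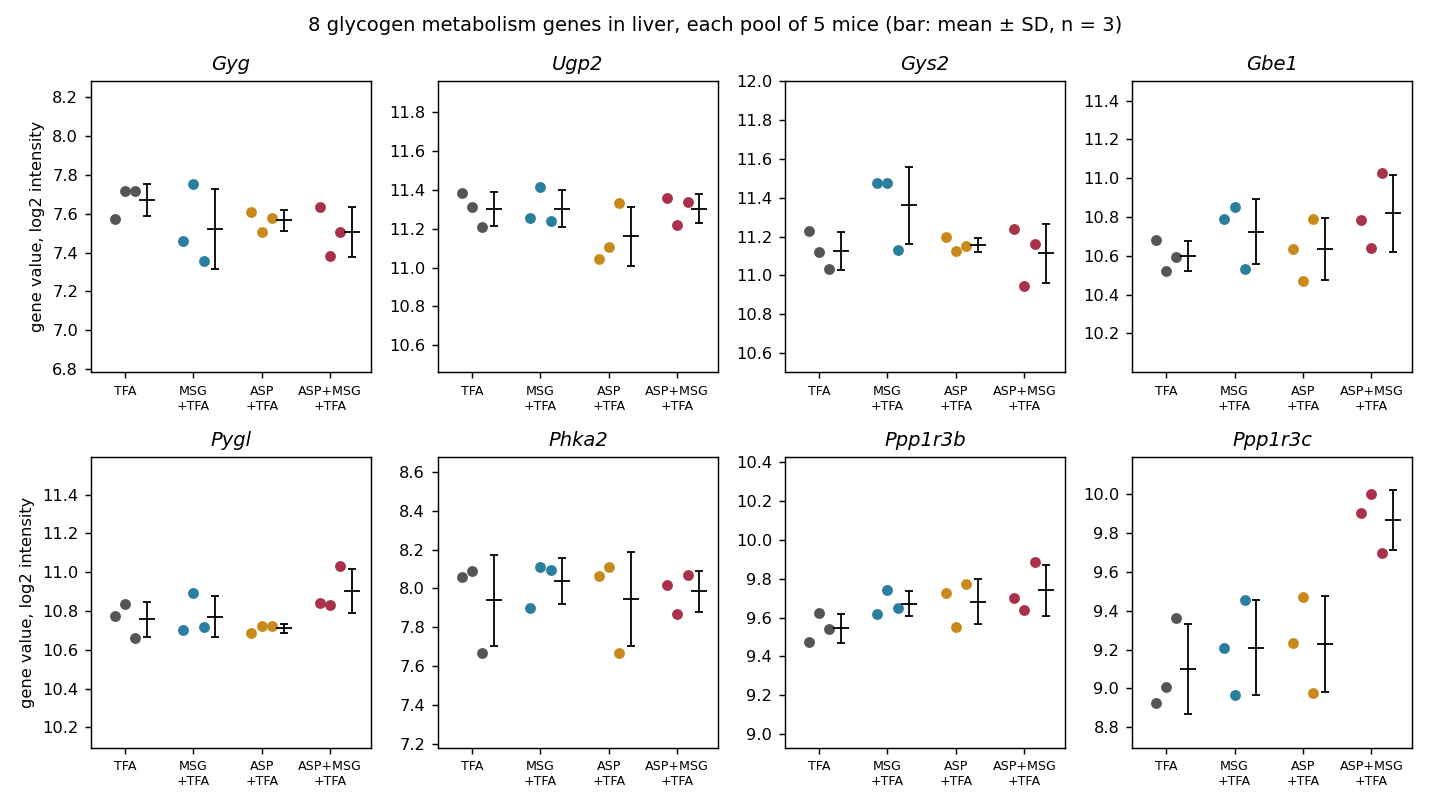
Gene value (y axis, mean log2 intensity of the gene's probe sets, every panel spanning the same log2 range) of the 8 glycogen genes in each pool of 5 mice (points), by diet (x axis), with the mean and SD of 3 pools. The ASP + MSG + TFA pools of Ppp1r3c lie between 9.70 and 10.00, above all other pools of that gene.

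In order of mean value, Ppp1r3c stood at 9.10 ± 0.23 (SD, n = 3) with TFA, 9.21 ± 0.24 with MSG + TFA, 9.23 ± 0.25 with ASP + TFA and 9.87 ± 0.15 with ASP + MSG + TFA. The first 3 diets did not separate beyond their spread: MSG differed from TFA by 0.11 ± 0.15 (log2, SE) and ASP from MSG by 0.02 ± 0.15. The step to both additives was 0.77 ± 0.15 from TFA, a 1.70-fold difference with a 95% interval of 1.36 to 2.14-fold. This ranked 31st of 20422 genes by p-value, yet it did not pass the adjustment over all genes (limma, Benjamini-Hochberg adjusted p = 0.133). The differences from MSG alone, 0.66 ± 0.15 (adjusted p = 0.613), and from ASP alone, 0.64 ± 0.15 (adjusted p = 0.276), were also short of the threshold of 0.05. The 3 comparisons share the ASP + MSG + TFA pools, so they do not count as separate evidence.

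Whether both additives together gave more than the sum of each was asked with the interaction term. For Ppp1r3c it was 0.53 ± 0.22 on the log2 scale, with a 95% interval of 0.06 to 1.00 and an adjusted p of 0.616. An excess over additivity was thus not called for this gene.

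One alternative placed Ppp1r3c past the threshold: weighting each array by its estimated quality gave 0.82 ± 0.14 against TFA (adjusted p = 0.029). Over all 23 alternatives of this comparison the difference ranged from 0.60 to 0.90 and the adjusted p from 0.029 to 0.442. The acinar mean was high in 2 of the 3 ASP + MSG + TFA pools. Over pools 1, 2 and 3 of that diet the acinar mean was 7.89, 8.18 and 6.21, and Ppp1r3c was 9.90, 10.00 and 9.70. In ASP + TFA pool 3, with the acinar mean of 8.71, the Ppp1r3c value was 8.97. The part of acinar transcripts in the Ppp1r3c values was not tested. Further fits were chosen after seeing the data. Leaving out the 3 pools highest in acinar transcripts kept only pool 3 of ASP + MSG + TFA. The Ppp1r3c difference was then 0.60, the low end of the range above, and it rests on that pool. With the skeletal muscle mean as a covariate the difference was 0.88 ± 0.25 (adjusted p = 0.214). The fit with the acinar mean as a covariate is also among the 23 alternatives.

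All 4 Ppp1r3c probe sets were higher with both additives. Probe set 10467207 was higher with both additives than with TFA by 0.68 (95% interval 0.24 to 1.12), 10467208 by 0.86 (0.39 to 1.34), 10467209 by 0.84 (0.41 to 1.28) and 10467210 by 0.69 (0.18 to 1.20), on the log2 scale. In each of the 4, the 3 ASP + MSG + TFA pools lay above the 3 TFA pools. Of all genes, 10% showed this separation in their gene values, and the share of all probe sets was not counted. The adjusted p over 212138 probe sets lay between 0.399 and 0.525. The probe sets read one transcript in the same pools, so their accord shows the evenness of the reading and adds no replicate.

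**Figure D2:**
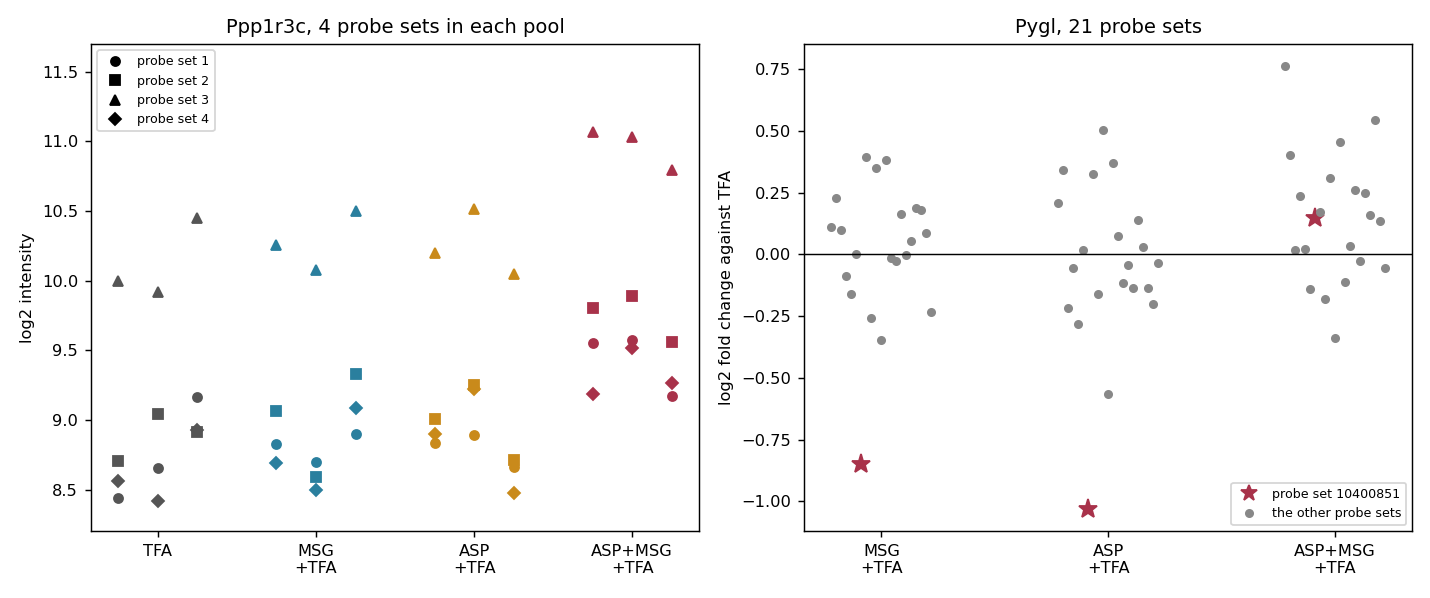
Left, log2 intensity (y axis) of the 4 Ppp1r3c probe sets, in the order 10467207 to 10467210, in each pool, by diet (x axis). Right, log2 fold change against TFA (y axis) of the 21 Pygl probe sets with each additive diet (x axis), with probe set 10400851 as a star: it lies at -0.85 and -1.03 with MSG and ASP and at 0.15 with both.

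The promoter of Ppp1r3c is shown because this gene carries the one difference that stood out. The window is the 250 bases before the RefSeq transcription start, at chr19:36736605-36736854 of GRCm38.p6 on the minus strand, written in the gene's direction. Capitals mark the one match found, an E-box (CACGTG), which spans positions -104 to -99 from the start.
Ppp1r3c promoter: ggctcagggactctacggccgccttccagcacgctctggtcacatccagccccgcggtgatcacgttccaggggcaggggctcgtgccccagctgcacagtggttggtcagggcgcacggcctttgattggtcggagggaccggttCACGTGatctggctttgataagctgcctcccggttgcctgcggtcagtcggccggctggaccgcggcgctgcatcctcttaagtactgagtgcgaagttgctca
Windows from 250 bases before to 50 after the start were searched on both strands. The motifs were the core promoter element TATAAA, the short form TGACG of the cAMP response element, its full form TGACGTCA, which contains the short one, the E-box CACGTG, and the forkhead site GTAAACA. The E-box, a sequence bound by basic helix-loop-helix factors, was in 7.15% of 32851 promoters, and among the 7 windows matched to 6 members it was in those of Ppp1r3c and Gyg. TGACG was in the windows of Pygl and Gyg and in 20.8% of all promoters. No member window held TATAAA (in 13.6% of all promoters), the full form TGACGTCA (1.79%) or the forkhead site GTAAACA (3.65%). The Ppp1r3c window had 65.3% G or C against a median of 52.7%, and 26 CG pairs against a median of 7.

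Ppp1r3b, the targeting subunit best known from liver, showed smaller differences. Its values were 9.47, 9.62 and 9.54 with TFA, 9.62, 9.74 and 9.65 with MSG + TFA, 9.73, 9.55 and 9.77 with ASP + TFA, and 9.70, 9.64 and 9.89 with ASP + MSG + TFA. With both additives all 3 pools lay above the 3 TFA pools, as for Ppp1r3c, but only narrowly. The difference of the Ppp1r3b gene value was 0.20 ± 0.09 (adjusted p = 0.497), against 0.13 ± 0.09 with MSG (adjusted p = 0.932) and 0.14 ± 0.09 with ASP (adjusted p = 0.677). Ppp1r3b and Ppp1r3c were the 2 members of 8 whose ASP + MSG + TFA pools all exceeded the TFA pools, a pattern that 10% of all genes showed.

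Among the synthesis genes, Gys2 had the widest difference between diets. Liver glycogen synthase stood at 11.23, 11.12 and 11.03 with TFA and at 11.47, 11.48 and 11.13 with MSG + TFA. It was 11.20, 11.12 and 11.15 with ASP + TFA and 11.24, 10.94 and 11.16 with both. MSG pools 1 and 2 lay above all other pools and pool 3 lay among them. The MSG difference from TFA was 0.23 ± 0.11 (95% interval 0.00 to 0.47, adjusted p = 0.846). The value with both additives differed from that with MSG alone by -0.25 ± 0.11 (adjusted p = 0.799), and the difference of both additives from TFA was -0.01 ± 0.11. All 17 Gys2 probe sets were lower with both additives than with MSG alone, by 0.02 to 0.42 on the log2 scale, and 14 of the 17 were higher with MSG than with TFA.

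No difference was called for the other synthesis genes, though that of Gbe1 with both additives was near the Gys2 difference with MSG in size. Gbe1, the branching enzyme, was 10.68, 10.52 and 10.59 with TFA and 10.79, 10.64 and 11.03 with both additives, which overlapped. The difference was 0.22 ± 0.12 (adjusted p = 0.562), and all 16 of its probe sets pointed up, by 0.03 to 0.54. Ugp2 differed from TFA by 0.00 ± 0.09 with both additives and with MSG, and by -0.14 ± 0.09 with ASP (adjusted p = 0.677). Gyg was the one member with a negative difference in all 3 comparisons against TFA: -0.15 ± 0.11, -0.10 ± 0.11 and -0.16 ± 0.11 with MSG, ASP and both. Its adjusted p-values were 0.932, 0.821 and 0.630, and its pools overlapped those of TFA each time. The same TFA pools enter the 3 values.

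On the breakdown side, Pygl stood at 10.78, 10.83 and 10.66 with TFA, 10.70, 10.89 and 10.72 with MSG + TFA and 10.68, 10.72 and 10.72 with ASP + TFA. With both additives it was 10.84, 10.83 and 11.03, a difference of 0.15 ± 0.09 from TFA (adjusted p = 0.599). Against ASP alone, all 3 pools with both additives were higher, by 0.19 ± 0.09 (adjusted p = 0.590). Phka2 differed from TFA by 0.10 ± 0.13, 0.01 ± 0.13 and 0.05 ± 0.13 with MSG, ASP and both. Its TFA pool 3 and ASP + TFA pool 3 both lay at 7.67, while the other 10 pools ranged from 7.87 to 8.11.

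One probe set departed from the other Pygl probe sets. Probe set 10400851 read 11.17, 11.75 and 11.44 in the TFA pools and 11.76, 11.62 and 11.43 with both additives. It read 10.77, 10.74 and 10.31 with MSG + TFA and 10.11, 10.53 and 10.62 with ASP + TFA, so each single-additive pool lay below every TFA pool and every pool with both. The differences from TFA were -0.85 ± 0.21 with MSG (adjusted p = 0.515) and -1.03 ± 0.21 with ASP (adjusted p = 0.166), and 0.15 ± 0.21 with both. The interaction term of this probe set was 2.03 ± 0.30 (95% interval 1.37 to 2.68), which did not pass the adjustment over all probe sets (adjusted p = 0.157). It was picked out after the values were seen. Probe set 10384592 of Ugp2 had means of like shape, 11.30, 10.77, 10.54 and 11.26 with TFA, MSG, ASP and both. So had 10497447 of Gyg, at 9.01, 8.45, 8.45 and 8.90. Neither separated the pools as 10400851 did: ASP + TFA pool 3 of 10384592, at 11.34, lay among its TFA pools. For 10497447, TFA pool 1, at 8.59, lay below MSG + TFA pools 1 and 2, at 8.61 and 8.62. Of the 123 member probe sets, 6 had an interaction term above 0 and 4 below at an unadjusted p under 0.05 (limma). The share of all probe sets with such a term was not counted, so these numbers have no base rate. Of the 21 Pygl probe sets, 3 had every MSG pool below the TFA pools and 3 had every MSG pool above. With ASP these numbers were 3 and 2, and the share of all probe sets was not counted. The median of the 21 was 0.05, -0.04 and 0.15 with MSG, ASP and both against TFA, so Pygl as a whole did not follow probe set 10400851.

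Over the 8 members, none passed the adjusted threshold in any of the 8 tests made with limma. In the comparisons against TFA, the share of all genes that passed was 0.0196% with MSG, 0.284% with ASP and 0.0392% with both. It was 0.113% in the test over the 4 diets, 0.0049% for both additives against MSG, 0.0245% for both against ASP, 0% for ASP against MSG and 0.0686% for the interaction.

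At an unadjusted p under 0.05, Ppp1r3c was the 1 member past the threshold in the test over diets, where 9.16% of all genes were. Against TFA the members past it were Gys2 with MSG (1 of 8, with 2.77% of all genes higher and 3.05% lower), none with ASP (6.66% higher and 3.47% lower) and Ppp1r3c with both (1 of 8, with 5.68% higher and 4.38% lower). For both additives against MSG, Ppp1r3c was higher and Gys2 lower, beside 3.65% and 2.49% of all genes. For both against ASP, Ppp1r3c and Pygl were higher, beside 3.35%. None passed for ASP against MSG, where 3.79% of all genes were higher and 1.9% lower, and in the interaction Ppp1r3c alone did, beside 3.27% higher. Non-overlap above was shown by Ppp1r3c against MSG and by Ppp1r3c and Pygl against ASP, for 7.28% and 4.31% of all genes.

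**Figure D3:**
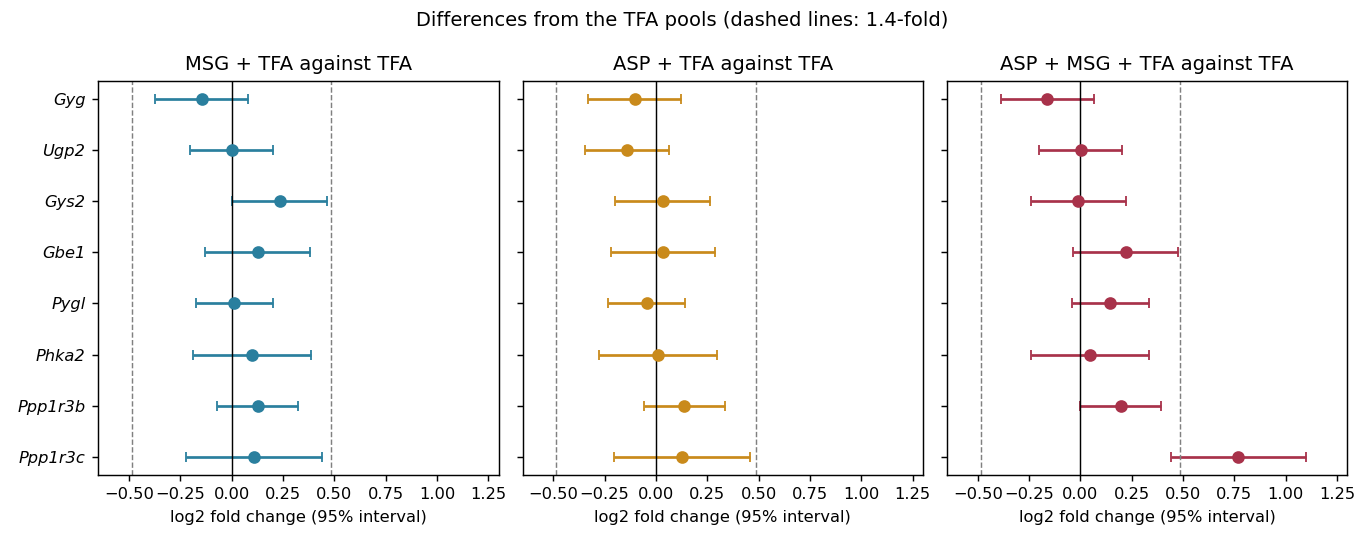
Log2 fold change against TFA (x axis) of the 8 glycogen genes (y axis) in the 3 comparisons, with the 95% interval from limma (3 pools a diet). Dashed lines mark a 1.4-fold change in either direction, and the interval of Ppp1r3c with both additives, 0.44 to 1.10, is the one that crosses it.

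How large a change the data would still allow is given by the intervals. In the main fit, with MSG and with ASP, the 95% intervals of all 8 members lay within a 1.4-fold change either way. With both additives the same held for the 7 members other than Ppp1r3c, whose farthest bound was 1.39-fold. Over the 23 alternatives the log2 difference from TFA moved further in some members. It ran from -0.34 to 0.33 for Phka2 with ASP. With both additives it ran from 0.10 to 0.43 for Gbe1 and from -0.41 to -0.10 for Gyg. The intervals under the alternatives are not given here. The median log2 difference of the 8 was 0.10 with MSG, 0.02 with ASP and 0.10 with both, against 0.00, 0.02 and 0.01 over all genes. Without Ppp1r3c the members' median with both additives was 0.05. Of the 123 member probe sets, none passed the adjusted threshold against TFA, as 0%, 0.00943% and 0.00141% of all probe sets did with MSG, ASP and both. At an unadjusted p under 0.05, 12 were higher and 2 lower with both additives, beside 3.74% of all probe sets higher and 4.09% lower. The 12 were 4 of Ppp1r3c, 4 of Pygl, 2 of Gbe1 and 2 of Phka2. Higher and lower member probe sets numbered 8 and 2 with MSG, beside 3.01% and 3.46% of all probe sets. They numbered 5 and 8 with ASP, beside 5.27% and 4.54%.

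Within a diet, Ppp1r3c ran against most of the other members from pool to pool. In each of the 4 diets the pool with the highest Ppp1r3c value was the pool with the lowest Gys2 value. It was the pool lowest in Gbe1, in Ugp2 and in Gyg in 3 of the 4 diets each, and in Ppp1r3b, Pygl and Phka2 in 2 each. Each diet had only 3 pools, and the share of all genes with such matches was not counted. After the mean of each diet was taken off, Pearson's r of Ppp1r3c over the 12 pools was -0.81 with Ugp2, -0.81 with Gbe1, -0.70 with Pygl, -0.66 with Gys2 and -0.63 with Ppp1r3b. It was -0.44 with Gyg and -0.08 with Phka2. Without the 2 pools farthest out in Ppp1r3c the first 2 were -0.73 and -0.87. The median r of Ppp1r3c with all 20422 genes was -0.03, and 0.299% and 0.338% of genes had an r as low as Ugp2 and Gbe1. That share was 1.32% for Pygl, 2.12% for Gys2, 2.88% for Ppp1r3b, 10.9% for Gyg and 43.9% for Phka2. These values were noticed in the data, rest on 12 pools with 4 means removed, share the same arrays, and are given as a description.

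**Figure D4:**
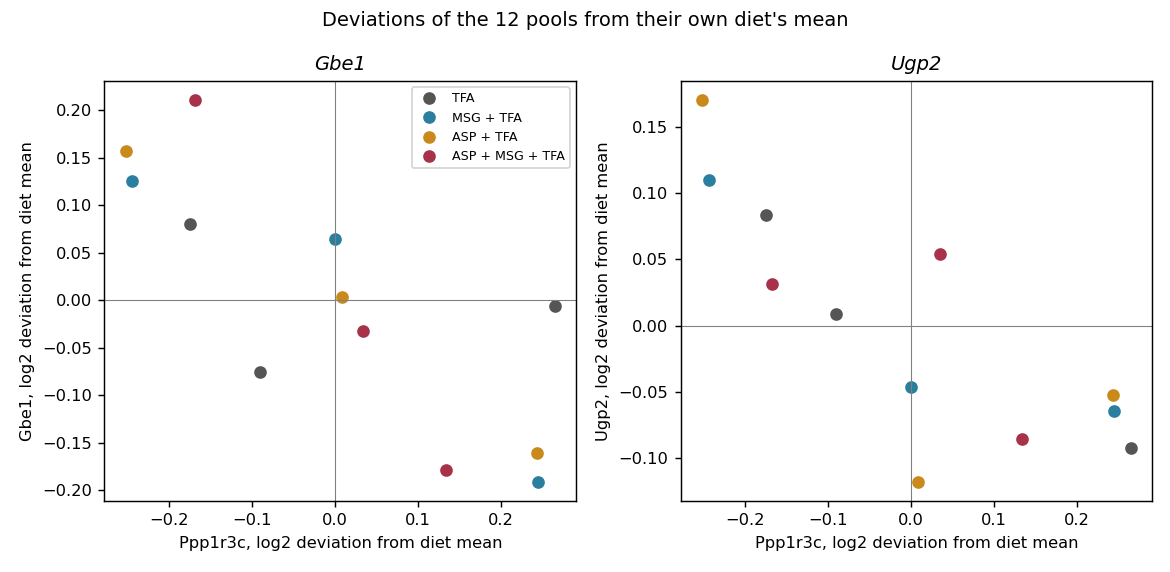
Deviation of each of the 12 pools from the mean of its own diet, Ppp1r3c on the x axis and Gbe1 (left) or Ugp2 (right) on the y axis, in log2 units and coloured by diet. Pools above their diet's mean in Ppp1r3c tend to lie below it in the other gene, with r of -0.81 in both panels.

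The genes whose values ran most like Ppp1r3c over the 12 arrays, among 8604 searched, were Fam65a (r = 0.89), Vaultrc5 (r = 0.82), which encodes a vault RNA, and Ypel2 (r = 0.82). In all 3 the ASP + MSG + TFA pools were the highest, by 0.12 ± 0.07, 0.40 ± 0.08 and 0.28 ± 0.10 over TFA on the log2 scale. For Gys2 they were H2-Q6 (r = 0.94), a class I histocompatibility gene with close relatives that can share probes, Bag4 (r = 0.90), a chaperone regulator, and Iqcb1 (r = 0.89), a gene of the cilium. Correlations this high were picked as the largest of many and carry no test.

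A further 26 genes of glycogen handling were read with the same arrays. Against TFA, 1 of 26 passed the adjusted threshold with ASP, and it fell: Pygm, the phosphorylase of skeletal muscle. None passed with MSG or with both. At an unadjusted p under 0.05, MSG had Stbd1 higher and Pygm lower, and so had ASP. With both additives Ppp1r3g, Phkg1 and Gckr were higher and Pygm lower. Their median log2 difference was 0.02, -0.01 and -0.03, near the medians of all genes given above.

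**Figure D5:**
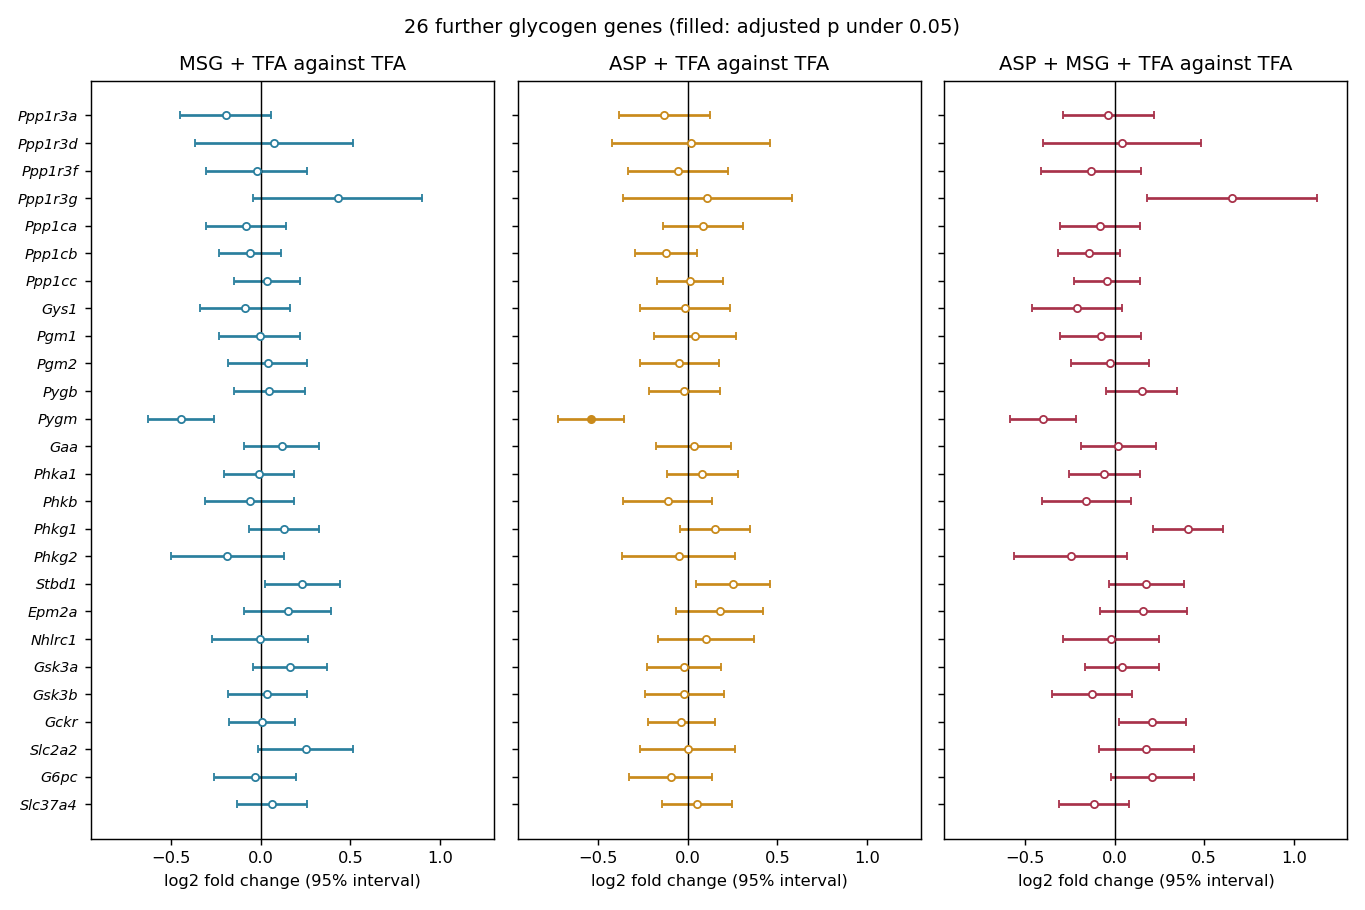
Log2 fold change against TFA with its 95% interval (x axis) of 26 further glycogen genes (y axis), 3 pools a diet. The filled point, Pygm with ASP at -0.54, is the one with an adjusted p under 0.05.

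Pygm stood at 6.27, 6.55 and 6.46 in the TFA pools. It was 6.04, 5.94 and 5.95 with MSG + TFA, 5.85, 5.84 and 5.96 with ASP + TFA and 5.99, 6.02 and 6.06 with both, below every TFA pool. The differences were -0.44 ± 0.09 (adjusted p = 0.198), -0.54 ± 0.09 (adjusted p = 0.021) and -0.40 ± 0.09 (adjusted p = 0.158). All 14 skeletal muscle markers were lower than in TFA in the same 3 comparisons, with medians of -0.89, -1.05 and -0.74, and 8 of them passed the adjusted threshold with ASP. Their part in the Pygm result was not tested.

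Of the other targeting subunits, Ppp1r3g was read by 1 probe set. Its values were 8.33, 7.97 and 7.81 with TFA and 8.72, 8.35 and 9.00 with both additives, where every pool lay above the TFA pools. The difference was 0.65 ± 0.22 (adjusted p = 0.341), with 0.43 ± 0.22 for MSG and 0.11 ± 0.22 for ASP. Ppp1r3a, Ppp1r3d and Ppp1r3f differed from TFA by -0.04, 0.04 and -0.13 with both. The phosphatase's own catalytic subunits Ppp1ca, Ppp1cb and Ppp1cc differed by -0.08, -0.14 and -0.04.

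Phkg1, the catalytic subunit of phosphorylase kinase best known from muscle, was dim, at 5.43, 5.59 and 5.65 with TFA and 5.97, 5.91 and 6.02 with both. Those pools were above all the others, and the difference was 0.41 ± 0.09 (adjusted p = 0.171). Its liver counterpart Phkg2 differed by -0.24 ± 0.15 (adjusted p = 0.601). Stbd1, a protein that binds glycogen and leads it to lysosomes, was higher by 0.23 ± 0.10, 0.25 ± 0.10 and 0.18 ± 0.10 with MSG, ASP and both (adjusted p = 0.806, 0.383 and 0.568). Gckr, a regulatory protein of liver glucose use, was 10.26, 10.25 and 10.19 with TFA and 10.33, 10.40 and 10.62 with both, a difference of 0.21 ± 0.09 (adjusted p = 0.439). G6pc, the last step of glucose release, was 13.66, 13.58 and 13.35 with TFA and 13.79, 13.63 and 13.82 with both (0.21 ± 0.11, adjusted p = 0.541).

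Another 12 genes that respond to fasting or insulin were read because glycogen turns over with them, and none passed the adjusted threshold in any comparison with TFA. At an unadjusted p under 0.05, Angptl4, an inhibitor of lipoprotein lipase, was higher with ASP, by 0.31 ± 0.12 (adjusted p = 0.377). Pdk4, the kinase that closes pyruvate dehydrogenase in the fasted state, was higher with both additives: 8.53, 8.58 and 8.54 with TFA against 8.84, 8.99 and 8.98. The difference was 0.39 ± 0.14 (adjusted p = 0.382), while with MSG and ASP alone it was -0.27 ± 0.14 and -0.20 ± 0.14. Pck1, a glucose-making enzyme of the fasted liver, differed by -0.06 with both, Igfbp1, which insulin holds down, by 0.04, Tat by 0.05 and Fgf21 by 0.10.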

How the data were processed

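The deposited table holds intensity values that the authors made from 12 Mouse Gene 1.0 ST arrays with GCRMA background adjustment and summarisation in Partek 6.3. They are linear, and log2 was taken here, with array medians of 6.91 to 6.96. Of the probe sets, 212138 had 1 symbol and were used, and 4672 with several symbols and 24766 with none were left out. Gene values were fitted over all 12 arrays with limma 3.58.1 (R 4.3.3), with empirical Bayes moderation and Benjamini-Hochberg adjustment over 20422 genes, and adjusted values below 0.05 counted as calls. The limma fit was tested on simulated data. The members and the gene lists were chosen with earlier results of these data known. All 8 members are named in each comparison. Other glycogen and fasting genes are named by an unadjusted p under 0.05 against TFA or over the diets, or as highest or lowest in level, with further genes named after the values were seen. Marker lists are given by their means. Current symbols were matched to the array's older names through RefSeq synonyms. Some genes of the lists are not reported here. Promoters came from RefSeq (GRCm38.p6), which matched 6 of the 8 members. Alternatives changed the scaling, the probe sets used, the summary, the variance model, array weights, a replicate block, the arrays included and the threshold. Figures were drawn with matplotlib 3.10.9. The number of arrays limits the precision.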

Additional observations from a re-analysis of the deposited data

How the results depend on the processing

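No member was called under any alternative that kept the adjusted threshold, except Ppp1r3c under array weights, which gave 1 called member in the test over 4 diets and 1 for ASP + MSG + TFA against TFA (adjusted p = 0.029). Array weights raised the genes called in that comparison from 8 to 76 of 20422. The count of all genes called over the 4 diets with array weights is not given here. The cause was not tested. At an unadjusted p under 0.05 alone, Ppp1r3c was the 1 member called over the 4 diets, beside 9.16% of all genes. The other comparisons also required at least a 1.4-fold change. There Ppp1r3c was the 1 member called for both additives against TFA, against MSG + TFA, against ASP + TFA and in the interaction. At that p without the fold change, 5.68%, 3.65%, 3.35% and 3.27% of all genes were higher. The shares higher by both thresholds cannot exceed these. The Ppp1r3c difference with both additives kept its sign in all 23 alternatives (0.60 to 0.90). With diet means taken off, pools of equal number in different diets had r from -0.34 to 0.35 (18 pairs, median 0.03). Pools of unequal number had r from -0.30 to 0.28 (36 pairs, median 0.0007). Such values cannot exclude a shared batch, and the numbers were used here as names of pools. With the replicate block, 0 members were called in each test and that Ppp1r3c difference was 0.77 (adjusted p = 0.149). Differences that changed sign were as follows, none of them called. With repeated quantile normalization Ugp2 was -0.012 with MSG and Phka2 -0.011 with ASP. With array median centring Phka2 was -0.013 with ASP and Ugp2 -0.015 with both. With the median of probe sets Pygl was -0.063 with MSG, and Ugp2 was 0.033 with ASP and -0.046 with both. With array weights Pygl was -0.0081 and Ugp2 -0.0037 with MSG, Gbe1 -0.064 with ASP and Gys2 0.0032 with both. Leaving out 1 pool at a time gave, with MSG, -0.012 to 0.243 for Ppp1r3c, -0.048 to 0.051 for Pygl, -0.054 to 0.043 for Ugp2 and -0.037 to 0.173 for Phka2. With ASP it gave -0.016 to 0.084 for Gys2, -0.044 to 0.115 for Gbe1 and -0.126 to 0.149 for Phka2. With both it gave -0.073 to 0.074 for Gys2, -0.044 to 0.045 for Ugp2 and -0.089 to 0.121 for Phka2. Further alternatives were chosen after seeing the data. Without the 3 pools highest in acinar transcripts Gbe1 was -0.044 with ASP and Gys2 0.036 with both. That fit kept only pool 3 of ASP + MSG + TFA, so its values with both additives rest on that pool. With the acinar mean as covariate Ugp2 was -0.013 with both. With the muscle marker mean as covariate, which separates TFA from the other diets, the values with MSG were -0.096 for Pygl, -0.016 for Gbe1, -0.089 for Ugp2 and -0.212 for Phka2. With ASP they were -0.084 for Gys2, -0.126 for Gbe1 and -0.341 for Phka2, and with both -0.073 for Ugp2 and -0.210 for Phka2. Against TFA alone, 3 pools a diet cannot separate small differences in these genes from 0.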
